A study of Mus musculus with 9 samples.

Results

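The constant regions of the mouse T cell receptor chains and the pre-T cell receptor alpha chain were followed across MYCN-driven T cell lymphomas and CD4+ T cells. The 8 genes were Trac, Trbc1, Trbc2, Trdc, Tcrg-C1, Tcrg-C2, Tcrg-C4 and Ptcra, 8 of the 46078 gene rows of the count table, and they were found by symbol. They had been picked with values of these same libraries known, so their own levels and the shares built from them are given as a description, without a test. RNA 3′ ends had been sequenced in 6 libraries of lymphoma cells from the thymus (lymphomas 34, 53, 56, 70, 72 and 86), whose tumours were induced by MYCN, a transcription factor of the MYC family, and in 3 libraries of CD4+ T cells from the spleen (CD4 1, 2 and 3). All animals were of the C57BL/6J strain. The labels give no MYCN allele, promoter or Cre driver, no age, sex or treatment, and do not state whether each lymphoma is an independent tumour and whether the CD4 libraries came from separate animals. The p-values below therefore measure the spread between these libraries. Tissue and disease are confounded, since all tumour cells came from the thymus and all controls from the spleen.

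A T cell carries 1 of 2 kinds of receptor, built from an alpha and a beta chain or from a gamma and a delta chain, and each chain joins a variable part, assembled by V(D)J recombination, to a constant region. Trbc1 and Trbc2 lie one after the other in the beta locus, each behind its own D and J segments, so that a beta chain uses one or the other. The delta locus, with Trdc, lies inside the alpha locus, and recombination of V to J segments of the alpha chain deletes it from that chromosome. The gamma locus holds several cassettes, each with its own J segment and constant region. Ptcra pairs with a newly made beta chain in immature thymocytes, before the alpha chain is assembled, and is switched off later.

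In the GRCm38 build with GENCODE M21 gene models, Trbc1 (chr6:41538218-41539881) and Trbc2 (chr6:41546730-41548352) lie on the plus strand in tandem. Their coding parts are identical at 495 of 518 bases. The end of the coding part, the coding stretch nearest to where transcript 3′ ends are read, differs at 19 of 120 bases. These ends are shown because the Trbc1 share rests on telling them apart, with introns left out, capitals where the sequences differ, and coordinates chr6:41539234-41539662 for Trbc1 and chr6:41547777-41548178 for Trbc2.
Trbc1: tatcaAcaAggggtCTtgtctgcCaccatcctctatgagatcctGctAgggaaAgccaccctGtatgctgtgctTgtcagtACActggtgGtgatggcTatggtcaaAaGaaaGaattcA
Trbc2: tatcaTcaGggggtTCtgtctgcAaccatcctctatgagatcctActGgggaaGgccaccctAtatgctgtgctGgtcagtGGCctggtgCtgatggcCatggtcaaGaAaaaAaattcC
No 50-base window in the last 300 bases of either transcript occurs in any other annotated transcript, although 41.1% of all Trbc1 windows and 44.0% of all Trbc2 windows occur in the other gene.

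On chromosome 13, Tcrg-C1 (chr13:19214103-19217024, plus), Tcrg-C2 (chr13:19304649-19307551, minus) and Tcrg-C4 (chr13:19344558-19352756, plus) belong to different cassettes of the gamma locus. Their last coding exons, 140 bases each, are shown because they mark which gamma counts can be split between genes, with capitals at the 45 positions where the 3 sequences are not all alike.
Tcrg-C1: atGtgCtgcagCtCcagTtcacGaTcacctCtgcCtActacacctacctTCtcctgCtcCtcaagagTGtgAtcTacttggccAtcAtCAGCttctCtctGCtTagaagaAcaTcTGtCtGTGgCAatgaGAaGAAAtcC
Tcrg-C2: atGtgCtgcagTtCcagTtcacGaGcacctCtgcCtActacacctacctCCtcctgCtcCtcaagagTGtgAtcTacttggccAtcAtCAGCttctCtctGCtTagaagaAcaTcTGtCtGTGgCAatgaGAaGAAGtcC
Tcrg-C4: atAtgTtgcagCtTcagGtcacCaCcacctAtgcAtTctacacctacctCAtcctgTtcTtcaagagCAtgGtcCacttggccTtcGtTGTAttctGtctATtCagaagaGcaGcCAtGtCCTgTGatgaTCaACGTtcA
They were read from chr13:19216476-19216615, chr13:19305063-19305202 (minus strand) and chr13:19352201-19352340. Tcrg-C1 and Tcrg-C2 are identical at 97.1% of these bases, whereas Tcrg-C4 matches either of them at 68.6%. Of the last 251 windows of Tcrg-C1 and of Tcrg-C2, 55 each occur in another transcript, and none of Tcrg-C4 does, so the split between Tcrg-C1 and Tcrg-C2 is less certain than the level of Tcrg-C4. Trdc (chr14:54142851-54148868, plus) lies upstream of Trac (chr14:54220521-54224206, plus). Its annotated last exon is 3403 bases long, 158 of its last 251 windows occur in other transcripts, and it overlaps the antisense segment Trdv5, which had no counts in any library, and 96 bases of the antisense gene Gm43434, so Trdc may be undercounted. Ptcra lies at chr17:46755663-46763712 on the minus strand.

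Counts in genes ranged from 8099960 to 15769679 per library. They were 27.8% to 35.0% of the reads accounted for in CD4 and 38.7% to 49.1% in lymphoma. Reads in no annotated gene were 30.4% to 33.3% in CD4 and 16.6% to 22.5% in lymphoma. The part of this group difference in the values below was not tested. Of the 15401 genes that passed the filter on low counts, 46.6% differed between lymphoma and CD4 (edgeR quasi-likelihood test, Benjamini-Hochberg adjusted p under 0.05), 24.7% upward and 21.9% downward. The CD4 libraries held markers of other cells: the 12 B cell markers summed to 3962 to 5115 counts per 1000000 scaled gene counts (CPM) there and to 361 to 488 CPM in the lymphomas, 15 plasmacytoid dendritic cell markers to 1130 to 1137 against 174 to 439 CPM. The 10 natural killer (NK) cell markers summed to 253 to 274 CPM in CD4 and 336 to 817 CPM in lymphoma, where Ncr1 and Gzmb were at 0 in all 6 libraries and Gzma, a granzyme, made up most of the sum at 298 to 785 CPM. The 10 myeloid markers summed to 529 to 662 CPM in CD4 and to 60.2 to 2155 CPM in lymphoma, highest in lymphoma 56. The T cell markers were present in every library, at 2256 to 4203 CPM in lymphoma and 3268 to 3629 CPM in CD4. The part of admixed cells in the values below was not tested.

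Of the 8 genes, 7 passed the filter and 3 of these passed the threshold, all higher in lymphoma, in a table where 24.7% of genes did so. The same 3, the gamma constant regions, were the members whose groups did not overlap in CPM, where 22.6% of all tested genes lay higher in lymphoma without overlap and 22.3% lower. Because the members were chosen on these values, nothing is read from the counts. The plot of member CPM by library shows the levels.

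**Figure D1:**
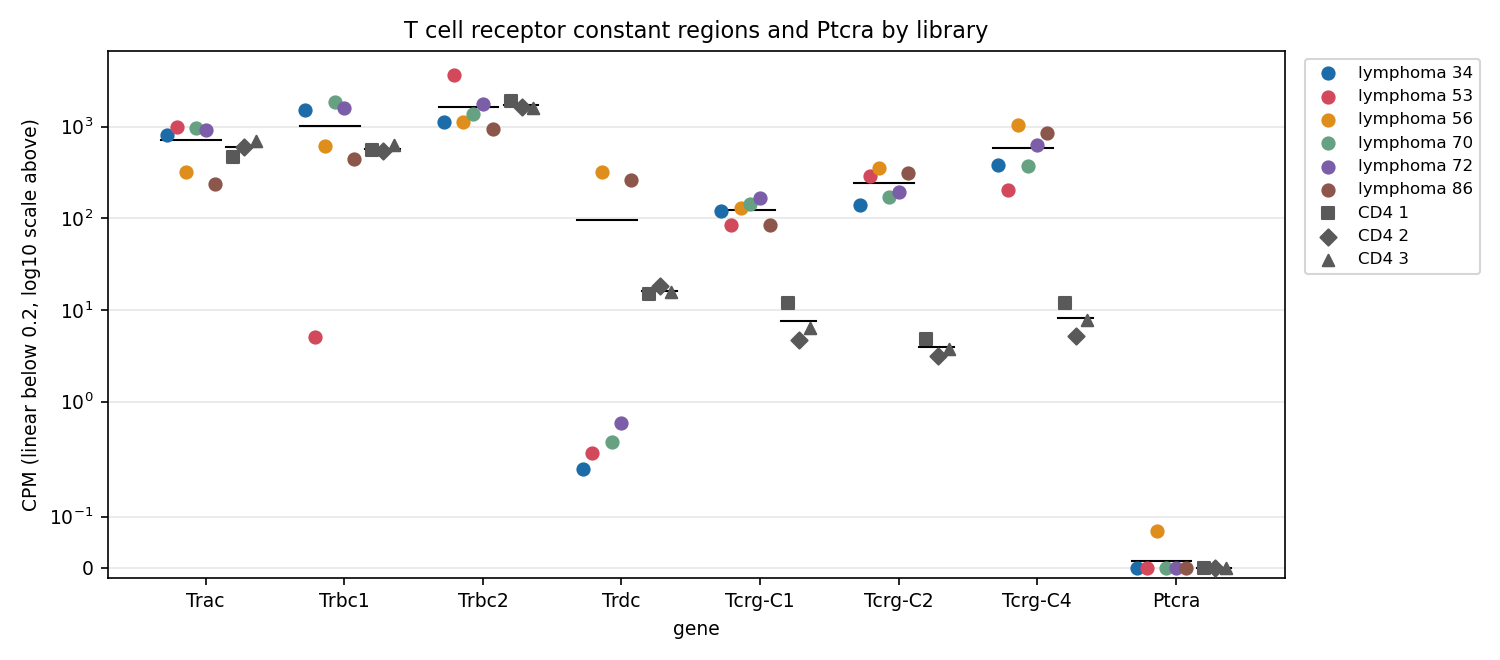
CPM of each gene (y axis, linear below 0.2 and log10 above) in the 6 lymphomas (coloured circles) and 3 CD4 libraries (grey symbols), with group means as bars. The gamma constant regions lie above CD4 in every lymphoma, Trdc is high in lymphomas 56 and 86, and Trbc1 is low in lymphoma 53.

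Trac, the constant region of the alpha chain, had 816, 987, 322, 956, 928 and 234 CPM in lymphomas 34, 53, 56, 70, 72 and 86, and 472, 600.0 and 706 CPM in CD4 1, 2 and 3. Lymphomas 56 and 86 lay below every CD4 library and the other 4 above every one. The lymphoma mean was 707 ± 338 CPM (SD, n = 6) and the CD4 mean 593 ± 117 CPM (SD, n = 3), and the fitted log2 fold change was 0.25 (SE 0.434), smaller than its error. In bulk RNA a lower level can come from fewer cells with the transcript or from less of it per cell, and these cannot be told apart.

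Trbc1, the upstream beta constant region, had 1537, 5.11, 617, 1836, 1594 and 438 CPM in lymphomas 34, 53, 56, 70, 72 and 86, and 559, 539 and 624 CPM in the CD4 libraries. Lymphomas 34, 70 and 72 stood above the controls, 56 lay within their range, 86 lay below it, and lymphoma 53, with 56 counts, was lower by far than any other library. Trbc2, the downstream copy, had 1120.0, 3626, 1113, 1374, 1754 and 944 CPM in the same order, and 1925, 1636 and 1598 CPM in CD4. Lymphoma 53 had the highest Trbc2 level of all 9 libraries, 72 lay within the CD4 range, and the other 4 lay below it. Fitted log2 fold changes were 0.81 (SE 1.15) for Trbc1 and -0.06 (SE 0.382) for Trbc2, both within their errors. The sign for Trbc1 turned with limma voom, to -0.38. Without lymphoma 53 the values were 1.06 and -0.45.

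The 2 beta genes were then set against each other within each library, which needs no scaling between libraries. Trbc1 made up 57.9% of Trbc1 plus Trbc2 counts in lymphoma 34 (Wilson 95% interval 57.4 to 58.3), 57.2% in 70 (56.8 to 57.6), 47.6% in 72 (47.2 to 48.0), 35.7% in 56 (35.0 to 36.3) and 31.7% in 86 (31.0 to 32.4). In lymphoma 53 it made up 0.141% (0.108 to 0.183), with 709 Trbc2 counts for each Trbc1 count. CD4 1, 2 and 3 had 22.5%, 24.8% and 28.1%, a mean of 25.1% ± 2.80 (SD, n = 3), against 38.4% ± 21.6 (SD, n = 6) in lymphoma. In all, 5 of the 6 lymphomas thus lay above every CD4 library and 1 below, and the spread among lymphomas was wider than among controls. These intervals cover counting error only, because no molecular identifiers were used and reads can be copies of 1 molecule. Dividing by transcript length, an alternative chosen after seeing the data, gave lymphoma shares of 0.132% to 56.3% and CD4 shares of 21.4% to 26.8%. Because 3′ ends were read, counts need not grow with length, here and in the other values per transcript length.

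Counts of the J segments, whose rows the choice of genes had not used, were small and were looked at after the counts had been seen. They did not follow the Trbc1 share in every library. Lymphoma 56 and CD4 2 had no such counts upstream of Trbc2, at Trbc1 shares of 35.7% and 24.8%. Lymphoma 53 had 16 counts in the J segments upstream of Trbc2, all in Trbj2-1 (chr6:41542754-41542803), and 0 in those upstream of Trbc1. Lymphomas 34, 56 and 72 had 12, 4 and 8 counts upstream of Trbc1 and 0 upstream of Trbc2, and lymphoma 70 had 16 and 2. Lymphoma 86 had 8 and 11. CD4 1, 2 and 3 had 0, 2 and 1 counts upstream of Trbc1 and 10, 0 and 4 upstream of Trbc2. A count of 0 allows up to 3 counts.

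**Figure D2:**
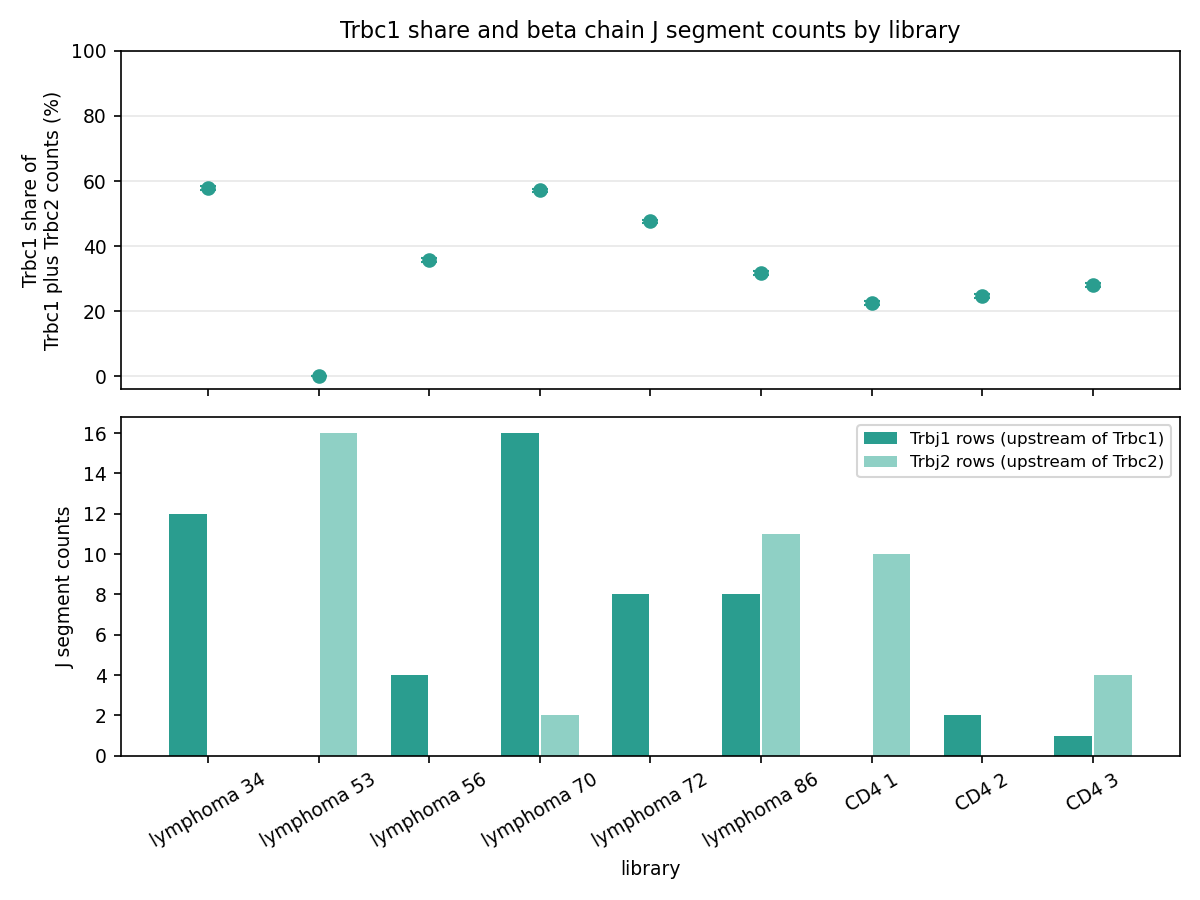
Upper panel, Trbc1 share of Trbc1 plus Trbc2 counts (%) in each library with Wilson 95% intervals. Lower panel, counts in J segments upstream of Trbc1 (dark) and of Trbc2 (light); lymphoma 53, at 0.141% Trbc1, has 0 and 16 such counts.

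Trdc, the constant region of the delta chain, had 3, 3, 4351, 6, 9 and 3600 counts in lymphomas 34, 53, 56, 70, 72 and 86, equal to 0.193, 0.274, 317, 0.367, 0.589 and 259.9 CPM. The CD4 libraries had 14.9, 18.1 and 15.9 CPM. Lymphomas 56 and 86 were above every control and the other 4 below every one, those of 34 and 53 at the floor of 3 counts. The group mean of 96.3 ± 150 CPM (SD, n = 6) therefore describes no library. The fitted log2 fold change of 2.56 (SE 2.42) was close to its error and turned to -2.34 with limma voom. Lymphomas 56 and 86 were also the pair with the lowest Trac: Trdc made up 49.5% and 52.6% of Trac plus Trdc counts there, 0.0237% to 0.0634% in the other 4 lymphomas, and 2.20% to 3.06% in CD4. Per transcript length the shares in lymphomas 56 and 86 were 19.2% and 21.2%, and those in CD4 0.541% to 0.757%. Trdj1, a J segment of the delta chain, had 17 and 11 counts in lymphomas 56 and 86, 0 in the other lymphomas, and 8, 11 and 0 in CD4. It split the lymphomas as Trdc did but did not set lymphomas 56 and 86 above CD4. Its levels were 1.24 and 0.794 CPM there and 0.763, 1.32 and 0 CPM in CD4 1, 2 and 3.

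The 3 gamma constant regions were higher in all 6 lymphomas than in any CD4 library. Tcrg-C4 had 385, 202.1, 1040.1, 376, 637 and 859.9 CPM in lymphomas 34, 53, 56, 70, 72 and 86, against 11.9, 5.16 and 7.71 CPM in CD4. Its means of 583 ± 321 and 8.26 ± 3.42 CPM were 70.6-fold apart, and the fitted log2 fold change was 6.13 (SE 0.657). It was highest in the 2 lymphomas with Trdc and lowest in lymphoma 53.

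Tcrg-C2 had 139, 289, 352, 172, 194 and 315 CPM in the lymphomas and 4.87, 3.12 and 3.76 CPM in CD4, which is 62.2-fold between means and 5.95 (SE 0.404) on the fitted log2 scale. Tcrg-C1 had 119.9, 84.6, 131, 145, 168 and 84.7 CPM against 11.9, 4.68 and 6.33 CPM, 16.0-fold and 3.99 (SE 0.370). Of the 3, Tcrg-C1 varied least among the lymphomas, and its highest and lowest libraries were 72 and 53. The make-up of the gamma counts also differed: Tcrg-C4 was the largest part in 5 lymphomas, at 54.2% to 68.3%, but in lymphoma 53 it was 35.1% and Tcrg-C2 was 50.2%. In CD4 the parts were 41.5% ± 1.74 for Tcrg-C4, 37.7% ± 3.30 for Tcrg-C1 and 20.7% ± 3.58 for Tcrg-C2 (SD, n = 3), from 108 to 301 gamma counts a library. Tcrg-C3, the remaining gamma constant region and not among the 8 genes, had 4 to 21 counts in the lymphomas and 0 in CD4.

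Ptcra had 1 count in lymphoma 56 and 0 in every other library. A count of 0 allows up to 0.274 CPM in any lymphoma and 0.360 CPM in any CD4 library. It did not pass the filter, and no fold is given, since both groups lay under the floor. A difference in Ptcra was not detectable at this depth.

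Counts of the 7 constant regions were then added up. Gamma and delta together made up 15.6%, 11.1%, 47.3%, 14.3%, 19.0% and 48.4% of constant region counts in lymphomas 34, 53, 56, 70, 72 and 86. The shares of CD4 1, 2 and 3 were 1.45%, 1.11% and 1.14%. The widest Wilson interval was 48.0% to 48.9%, in lymphoma 86. Put as a ratio, alpha plus beta counts exceeded gamma plus delta counts 1.12-fold and 1.06-fold in lymphomas 56 and 86, 4.28-fold to 8.02-fold in the other 4, and 67.8-fold to 89.3-fold in CD4. Lymphomas 56 and 86 thus carried close to equal counts of both chain classes, and no lymphoma reached the CD4 ratio. In the 4 lymphomas without appreciable Trdc nearly all of this was gamma: the delta share was 0.00470% to 0.0112% there, against 8.13% and 8.29% in lymphomas 56 and 86 and 0.496% to 0.646% in CD4. Without Tcrg-C1 and Tcrg-C2, whose reads are harder to separate, the shares were 9.99%, 4.198%, 39.8%, 8.28%, 13.0% and 40.9% in the lymphomas, in the order above, and 0.799% to 0.899% in CD4. Among the lymphomas, the share was lowered the most in proportion in 53, 70 and 34. In CD4 1 it went from 1.45% to 0.899%, a larger drop in proportion than in lymphoma 34. Per transcript length, the alternative added after seeing the data, they were 8.87% to 38.4% and 0.490% to 0.838%. All constant regions together came to 3136 to 5276 CPM in lymphoma and 2805 to 3000 CPM in CD4, and Trac made up 19.9% ± 3.86 (SD, n = 6) and 20.6% ± 4.17 (SD, n = 3) of Trac plus both Trbc genes, which differ by less than the spread.

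**Figure D3:**
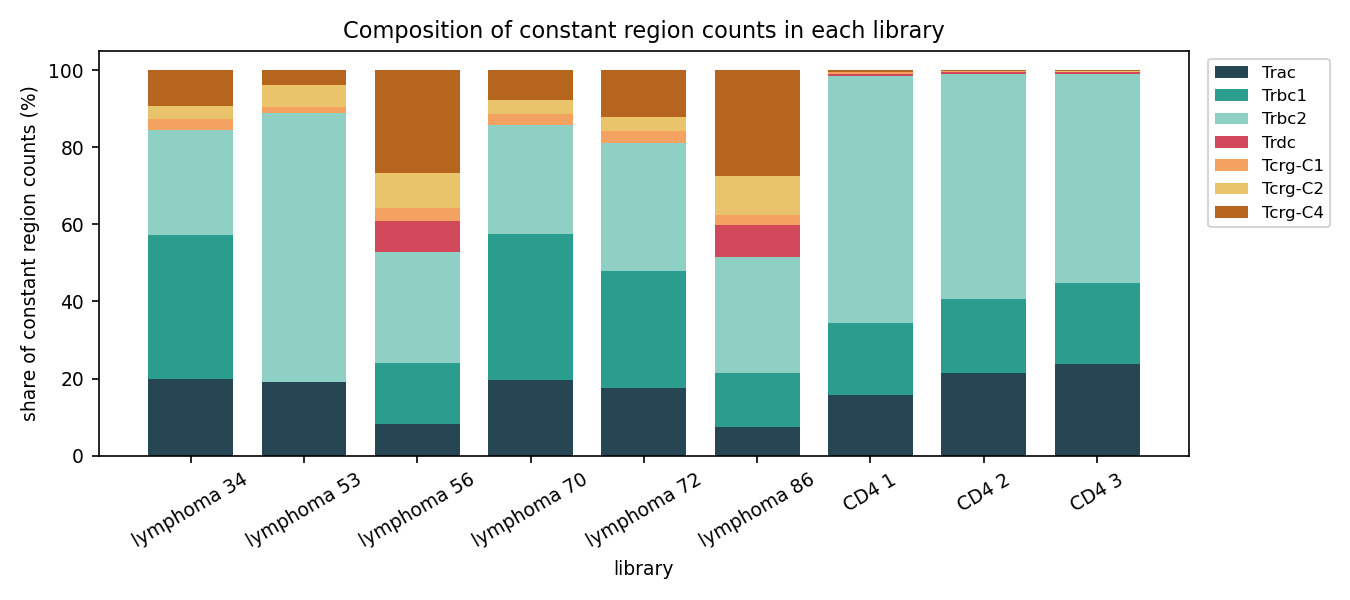
Share of each of the 7 constant regions in their summed counts (y axis, %) for each library. Gamma and delta regions (warm colours) make up 11.1% to 48.4% of the bars in the lymphomas and at most 1.45% in CD4.

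To order the genes by level, CPM was divided by the kilobases of the longest annotated transcript. Because 3′ ends were read, counts need not grow with length, and the division lowers long transcripts such as Trdc. The order without it is given below. In CD4 the order of mean CPM per kilobase was Trbc2 (2485), Trbc1 (779), Trac (634), Tcrg-C4 (8.39), Tcrg-C1 (8.27), Tcrg-C2 (4.28), Trdc (4.22) and Ptcra (0). Tcrg-C4 stood above Tcrg-C1 in 2 of 3 libraries and Tcrg-C2 above Trdc in 2 of 3, so these neighbours did not separate. In lymphoma the order was Trbc2 (2392), Trbc1 (1363), Trac (756), Tcrg-C4 (592), Tcrg-C2 (266), Tcrg-C1 (132), Trdc (24.9) and Ptcra (0.00945). Trbc2 stood above Trbc1 in 4 of 6 lymphomas, Trbc1 above Trac in 5, Trac above Tcrg-C4 in 4 and Tcrg-C4 above Tcrg-C2 in 5, whereas Tcrg-C2 stood above Tcrg-C1 and Tcrg-C1 above Trdc in all 6. Neighbours among the upper 5 genes in lymphoma therefore did not separate, and Tcrg-C4 lay above Trac in lymphomas 56 and 86, which it did in no CD4 library. Without the division by length the lymphoma means kept this order, but the CD4 means did not: Trac (593 CPM) came before Trbc1 (574 CPM), and Trdc, the longest transcript of the 7 constant regions, had 16.3 CPM, above Tcrg-C4 (8.26 CPM), Tcrg-C1 (7.65 CPM) and Tcrg-C2 (3.92 CPM).

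V segments belong to the same chains, and the choice of genes had not used their rows. A V segment and its constant region are parts of the same transcript, and the gamma constant regions were chosen with their levels known. The test of gamma V segments is therefore not independent of that choice. V segments lie at the far end from the 3′ ends that were read, so their counts need not follow chain levels. The groups also differed in the percentage of reads outside genes, and its part in V segment counts was not tested. As a percentage of constant region counts, alpha V counts were 0.167% (lymphoma 53) to 5.78% (CD4 2). Gamma V counts were 2.41% (lymphoma 53) to 60.2% (CD4 2). Alpha, beta and delta V segments had at most 289 counts a library, and gamma V segments 48 to 6565. Gamma V segments rose 32.5-fold: they summed to 225 ± 171 CPM in the lymphomas (SD, n = 6) and to 6.93 ± 2.22 CPM in the controls (SD, n = 3), higher in 6 of 6 lymphomas (two-sided exact permutation, p = 0.0238 and no smaller p is possible here, or 0.0317 after Benjamini-Hochberg adjustment over 4 chains). Lymphoma 53 stood apart, with 13.9 CPM beside 119 to 478 CPM in the other 5 lymphomas and at most 8.59 CPM in CD4, and its Tcrg-V1 level of 3.38 CPM lay within the CD4 range of 2.84 to 6.36 CPM. Alpha V segments fell, from 23.6 ± 10.1 CPM in CD4 to 3.54 ± 2.76 in lymphoma, lower in 6 of 6 (exact permutation p = 0.0238, adjusted 0.0317), although mean Trac was not lower. Delta V segments fell from 4.51 ± 3.83 to 0.277 ± 0.445 CPM, again in 6 of 6 (exact permutation p = 0.0238, adjusted 0.0317), lymphomas 56 and 86 included, with 15 and 7 counts beside 4351 and 3600 counts of Trdc. The delta sums hold Trdv rows alone, since segments named for both chains, such as Trav4-4-dv10, were summed with alpha. Beta V segments had 2.73 ± 2.74 and 8.22 ± 3.06 CPM and missed the threshold (exact permutation p = 0.0714, adjusted 0.0714), lower in 4 of 6. Lymphomas 56 and 86 had 0 beta V counts beside 23772 and 19152 beta constant region counts. Leaving out any CD4 library (1, 2 or 3), or averaging lymphomas 34, 70 and 72 into 1 library, ended all 3 calls (adjusted p 0.0714 to 0.0952), because the smallest p these smaller designs allow is 0.0714 and 0.0571.

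The single segments used differed between libraries. Trav8-1 (chr14:53469756-53470232) held 84 of 100, 72 of 92 and 78 of 92 alpha V counts in lymphomas 34, 70 and 72, and Trbv12-1 (chr6:41113550-41114067) held 78.6%, 61.6% and 54.0% of their beta V counts. In the 3 CD4 libraries the most used segment of the alpha chain (Trav4-4-dv10, Trav9-4 and Trav12-2) held 10.7% to 16.7%, and that of the beta chain (Trbv20 in 2 and Trbv29 in 1) at most 31.3%. The same V segments thus led in lymphomas 34, 70 and 72, and usage there was more uneven than in the controls. Tcrg-V1 (chr13:19339989-19340454), 4103 bases upstream of Tcrg-C4 on the same strand, led the gamma V counts in lymphomas 34, 56, 70, 72 and 86, at 51.3% to 64.1%, and in all CD4 libraries. In lymphoma 53, where Tcrg-C2 exceeded Tcrg-C4, Trgv2 (chr13:19336573-19337167, minus) led with 115 of 152 counts. Trgv2 lies 29021 bases upstream of Tcrg-C2 on the same strand, and nearer to Tcrg-C4, which is on the other strand. Trdv2-2 (chr14:53960944-53961602) led the delta V counts in CD4 2 (74 of 74) and CD4 3 (21 of 32), the libraries with at least 20 such counts.

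**Figure D4:**
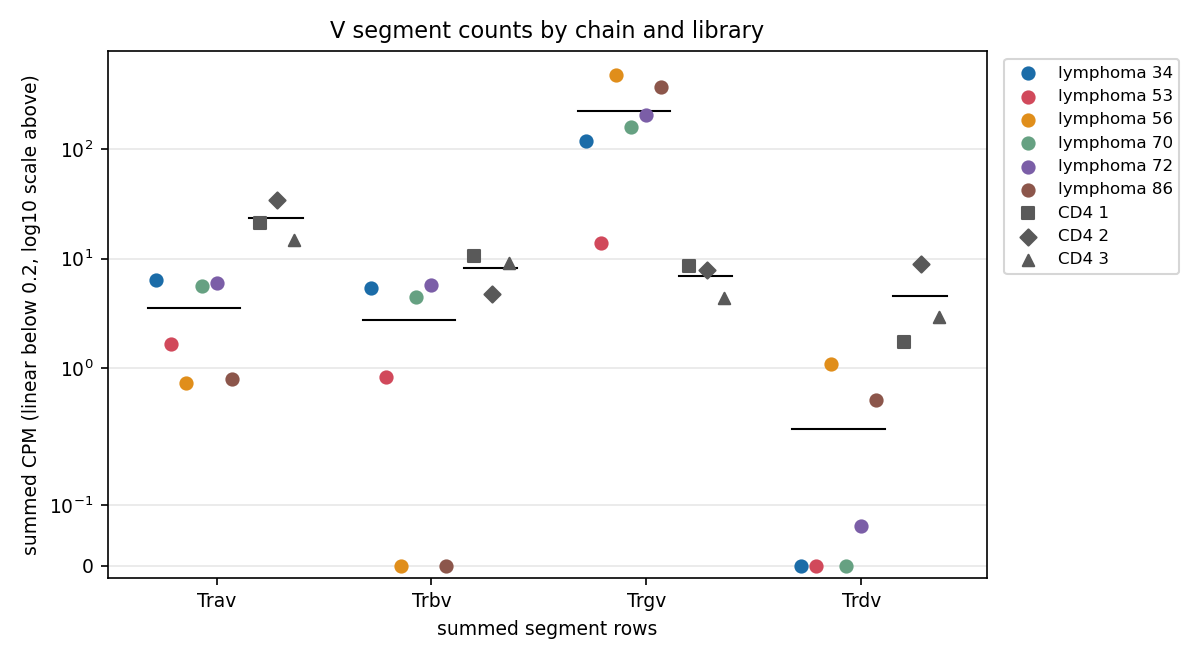
Summed CPM of V segment rows of the alpha (Trav), beta (Trbv), gamma (Trgv) and delta (Trdv) chains (y axis, linear below 0.2 and log10 above) by library, with group means as bars. Gamma V segments are higher in all 6 lymphomas, and alpha and delta V segments lower.

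Genes whose log2 CPM ran most like each member over the 6 lymphomas were listed among 8748 genes (8749 for Trdc) as a description; with so many genes and 6 libraries, high values are also reached by chance. For Trbc1 they were Runx1 (a transcription factor; Pearson r 0.999), Gm36933 (0.997) and Cep350 (0.997), and for Trbc2 Prkag2 (0.999), Gm26551 (0.997) and Ostm1 (0.996). For the gamma genes they were Prex1 (0.991), Zfp451 (0.989) and Itpkb (0.987) for Tcrg-C1, Mars2 (0.991), Slc44a1 (0.987) and Sdc1 (0.985) for Tcrg-C2, and Tomm40 (0.993), Atf6b (0.992) and Slc29a1 (0.982) for Tcrg-C4. Without the 2 lymphomas farthest from the member's median, these 15 values were 0.922 to 0.995. For Trac they were Tmem80, Ilvbl and Plcxd2, but without lymphomas 56 and 86 the r of Tmem80 fell to 0.420 and that of Ilvbl to 0.158, so both rest on these libraries, while Plcxd2 kept 0.979. For Trdc, whose libraries form 2 clusters, Plscr3, Imp3 and Disp1 came first and no r is given.

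The genes that act with the receptor chains were taken from 5 lists, with 69 of 78 genes tested. Of these, 18 rose, 30 fell and 21 did not pass (69.6% called, beside 46.6% of all genes), with a median log2 fold change of -0.48 against 0.04 over all genes. The lists were chosen with earlier results of these data known, so these values are a description. The part of admixed cells in them was not tested. The plot of pathway genes shows 4 of the lists.

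The receptor reaches the surface only with the CD3 chains. Of 12 partners, none rose, 3 fell and 9 did not pass (median log2 fold change -0.42). Cd3d had a log2 fold change of 0.07 (453 ± 44.3 against 432 ± 19.1 CPM), Cd3e 0.17, Cd3g -0.30 and Cd247, the zeta chain, -0.39; for Cd247 the adjusted p was 0.108 and fell under the threshold without lymphoma 72 (0.0430) and with upper quartile scaling (0.0494). The co-receptor gene Cd4 fell by 2.76 on the log2 scale (SE 0.717, edgeR adjusted p = 0.0111), from 240.0 ± 35.5 to 35.3 ± 29.2 CPM, and was lowest in lymphomas 56 and 86 (6.04 and 9.02 CPM). The controls are CD4+ T cells, defined by the protein of this gene, so a high Cd4 level there was built into the design. The fall of Cd4 is therefore a description. Fcer1g, a signalling chain shared with Fc receptors, fell by 2.18 (edgeR adjusted p = 0.00689), and the costimulatory receptor gene Cd28 fell by 0.84 (adjusted p = 0.00869, and 0.0934 without CD4 3). Cd8a and Cd8b1, the chains of the other co-receptor, had 29.4 and 47.6 CPM in lymphoma 53, at most 1.53 and 0.735 CPM in the other lymphomas, and 25.6 to 31.8 and 35.9 to 44.9 CPM in CD4. They did not pass with all libraries (adjusted p = 0.207 and 0.324) and did without lymphoma 53 (log2 fold changes -5.28 and -6.88, edgeR adjusted p = 9.35e-05 and 7.94e-06) and with limma voom (adjusted p = 0.000559 and 0.000392). The part of admixed cells in the Cd8a and Cd8b1 levels of the CD4+ T cell libraries was not tested. Cd5 (-0.45), Cd6 (-0.02) and Trat1 (-0.00) did not pass; the signs of Cd6, Trat1 and Cd3d turned in some alternatives.

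**Figure D5:**
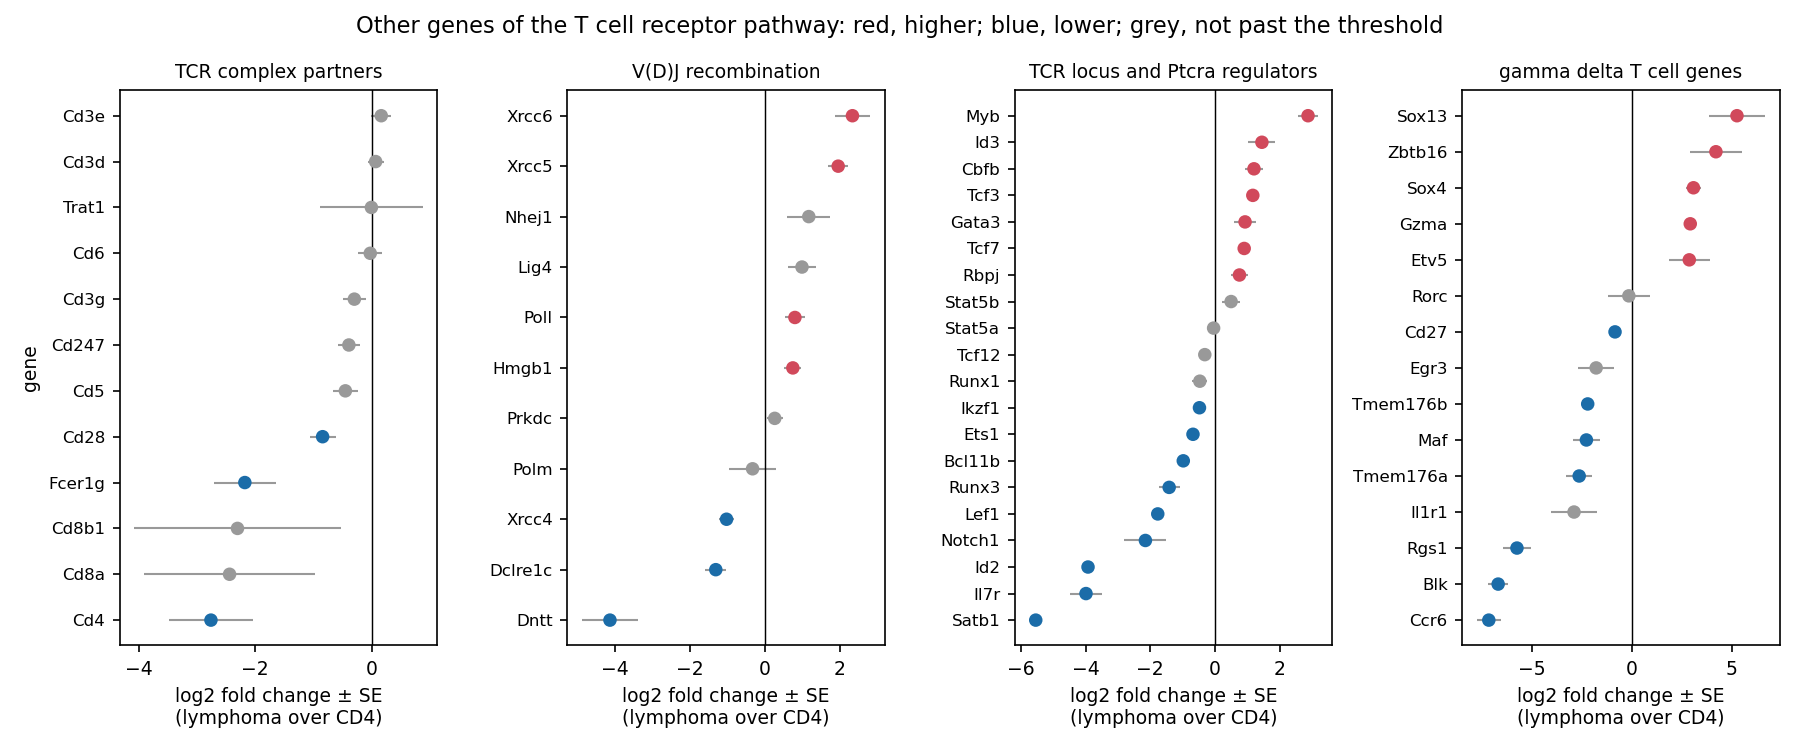
Fitted log2 fold changes (x axis, lymphoma over CD4, bars are SE) of the tested genes of 4 lists. Red marks genes that rose, blue genes that fell and grey genes that did not pass; no receptor partner rose.

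Among 13 V(D)J recombination genes, 11 were tested, 4 rose, 3 fell and 4 did not pass (median log2 fold change 0.74). Rag1 and Rag2, the recombinase, reached at most 0.183 and 0.120 CPM in any library, under the floor, and were not tested. Xrcc6 and Xrcc5, the Ku end-binding subunits, rose by 2.33 (edgeR adjusted p = 0.00214) and 1.95 (adjusted p = 0.000111). Dntt, the polymerase that adds untemplated bases, fell by 4.12 (adjusted p = 0.000844), from 9.50 ± 3.27 to 0.545 ± 0.429 CPM, and Dclre1c, the Artemis nuclease, fell by 1.31 (adjusted p = 0.00215). All 4 were the same in direction in 6 of 6 lymphomas, with no overlap.

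Among 20 regulators of the receptor loci and of Ptcra, 7 rose, 9 fell and 4 did not pass (median -0.39). The transcription factor gene Myb rose by 2.87 (edgeR adjusted p = 1.70e-05; 251 ± 72.9 against 34.4 ± 4.87 CPM), and Id3, an inhibitor of E proteins, by 1.45 (adjusted p = 0.0148), a call lost without CD4 2 (0.0658) or CD4 3 (0.0680). Satb1, a chromatin organiser, fell by 5.54 (adjusted p = 2.75e-08), from 1186 ± 277 to 25.5 ± 4.25 CPM. Il7r, the interleukin 7 receptor, whose signal opens the gamma locus, fell by 3.99 (adjusted p = 0.000131), from 428 to 554 CPM in CD4 to 9.67 to 66.9 CPM. Both were lower in 6 of 6 lymphomas. The gamma constant regions were higher in the same 6, and a relation of their level to that of Il7r was not tested.

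Among 20 genes known from gamma delta T cells, 15 were tested, 5 rose, 7 fell and 3 did not pass (median -1.78); requiring 10 counts in every library left 5 of them called. Sox13 rose by 5.27 (edgeR adjusted p = 0.00951) at a low level of 0.0728 to 3.55 CPM, lowest in lymphoma 56, and missed the threshold with limma voom (0.0730). Zbtb16, the factor PLZF, rose by 4.22 (adjusted p = 0.0270): it had 88.9 to 140.2 CPM in 5 lymphomas and 0.274 CPM in lymphoma 53, beside 2.67 to 7.43 CPM in CD4, and the call was lost without CD4 1, 2 or 3 (adjusted p 0.0643 to 0.0842), with limma voom (0.404), without a filter (0.0635) and with lymphomas 34, 70 and 72 averaged (0.0596). Ccr6, a chemokine receptor, fell by 7.17 (adjusted p = 4.30e-06) and Blk, a kinase also made by B cells, fell by 6.70 (adjusted p = 1.62e-06). All 12 B cell markers fell as well, and their part in the levels of Blk and Ccr6 was not tested.

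Among 20 immature thymocyte genes, 16 were tested, 2 rose, 9 fell and 5 did not pass (median -2.37). Aqp11 rose by 3.82 (edgeR adjusted p = 0.0168), with 0.365 CPM in lymphoma 53 and 18.6 to 52.1 CPM in the other 5, and the call was lost without CD4 1, 2 or 3 (adjusted p 0.0537 to 0.0696), with limma voom (0.317) and without a filter (0.0578). Cd24a, a surface protein high on immature thymocytes, rose by 2.23 (adjusted p = 4.48e-05) in 6 of 6. Il2ra, the interleukin 2 receptor alpha chain, fell by 7.92 (adjusted p = 7.33e-07), from 52.6 ± 4.53 to 0.203 ± 0.170 CPM, and Dtx1, a Notch target, fell by 6.41 (adjusted p = 3.98e-07), from 180.6 ± 25.8 to 2.16 ± 1.43 CPM. The controls were spleen cells with markers of other cell types, whose part in these falls was not tested. The list holds genes of stages in which Ptcra is made, and its median lay in the same direction as those of the other lists except V(D)J recombination.

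Of the marker lists, all 12 B cell genes fell, led in level by Igkc (1515 ± 387 to 59.8 ± 39.3 CPM) and Ighm (1146 ± 216 to 326 ± 61.2 CPM), the immunoglobulin constant regions. Of 14 tested plasmacytoid dendritic cell genes, 12 fell and 2 did not pass; Tcf4 fell by 2.43 (edgeR adjusted p = 9.65e-06) and Irf8 fell by 2.01 (adjusted p = 0.0365), a call lost without any 1 library except lymphoma 53 (adjusted p 0.0529 to 0.0790), without a filter (0.0918) and with lymphomas 34, 70 and 72 averaged (0.0975). Of 10 NK cell genes, Gzma rose by 2.93 (adjusted p = 1.03e-05), 7 fell, among them Nkg7, which fell by 2.65 (adjusted p = 0.0139, and 0.0507 without a filter), and 2 did not pass. Of 10 myeloid genes, 4 fell and 6 did not pass; S100a8 and S100a9 ranged from 6.02 to 1035 and from 4.52 to 989 CPM among lymphomas, highest in lymphoma 56. Of 10 T cell genes, 3 fell and 7 did not pass, with Lck at 540.3 ± 156 against 770.5 ± 79.1 CPM and Thy1 at 727 ± 399 against 407 ± 47.7 CPM. These missed the threshold with edgeR (adjusted p = 0.0796 and 0.0690). Both passed without lymphoma 53 (adjusted p = 0.0122, lower, and 0.00897, higher) and with DESeq2 (0.0478 and 0.0476), Lck also with upper quartile scaling (0.0375) and where all libraries needed a minimum of 10 counts (0.0428), and Thy1 also without lymphoma 34 (0.0457) or 70 (0.0415) and with lymphomas 34, 70 and 72 averaged (0.0405). Siglech, a defining marker of plasmacytoid dendritic cells, reached at most 0.367 CPM in any lymphoma and 60.7 to 69.1 CPM in CD4.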

How the data were processed

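RNA 3′ ends of 6 lymphoma and 3 CD4 libraries had been sequenced. The authors deposited a raw read count per Ensembl gene and library. FastQC, HISAT2, SAMtools, HTSeq and the builds mm10 and GRCm38 are named, without versions, in the submitters' processing notes; annotation, strand setting and handling of reads in several places are not given in the sources used here. The summary rows stayed out of library sizes, and 0 columns matched no sample. At these depths a count of 0 allows 0.184 to 0.360 CPM.

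The test was edgeR 4.0.16 under R 4.3.3 (TMM scaling, filterByExpr with a minimum count of 10, robust glmQLFit, glmQLFTest, all 9 libraries, no covariate), with Benjamini-Hochberg adjustment over 15401 genes and a threshold of 0.05, and the procedure was tested on simulated data. SE is the absolute log2 fold change over the root of the F statistic. CPM is per 1000000 counts of the TMM-scaled library size; log2 CPM used a prior count of 2. Alternatives used DESeq2 1.42.0, limma 3.58.1, other scalings and filters, and each library left out. V segment sums were compared by exact permutation of 84 assignments (scipy 1.17.1). Sequences and coordinates came from GENCODE M21 on GRCm38.

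Members and lists were chosen with earlier results of these data known. Named are all members, all receptor partners, the 2 largest rises and falls past the threshold of every other pathway list, the most used V segment where a library had 20 counts, the 3 genes most like each member among genes of mean log2 CPM of at least 3, and the 2 marker genes of highest level in each list. Siglech, Ncr1, Gzmb, Rag1, Rag2, Tcrg-C3, Trdv5, Gm43434 and the J segments were named after their values were seen.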

Additional observations from a re-analysis of the deposited data

Results flagged for a closer look

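Of 52 results examined over the 6 lymphomas (gene levels, V segment sums and shares), 10 had 1 library far from the others. The rule was a gap to the nearest library that, as a part of the whole range, exceeds Dixon's 95% critical value. Chance would give about 2.6 for separate results chosen without knowledge of their values. These results were not chosen that way, and the shares use the same counts as the members. The flags are therefore a description, and those for Trbc2 and Ptcra are of members. Lymphoma 53 was that library for 8 of the 10. It was highest for Trbc2 (3626 CPM, next 1754), Cd8a (29.4, next 1.53), Cd8b1 (47.6, next 0.735), Xrcc6 (178.5, next 60.5), Dtx1 (5.02, next 2.02), Thy1 (1535, next 611) and Irf8 (268.8, next 72.3), and lowest for Zbtb16 (0.274, next 88.9). Lymphoma 56 was highest for S100a8 (1035 CPM, next 264). It was also highest for Ptcra, at 0.0728 CPM, which is 1 count where all other libraries had 0. Lymphoma 53 is the same library that had 56 Trbc1 counts and more Tcrg-C2 than Tcrg-C4.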

How the results depend on the processing

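No paired analysis was possible because the groups share no replicate number. Genes changed numbered 7174, 4915 at an adjusted p under 0.01 and 5871 to 8137 without 1 library, and pathway genes changed numbered 48, with 34 to 53 over all alternatives. Upper quartile scaling moved the median of all genes from 0.04 to -0.06 and no filter to 0.20. Tcrg-C1, Tcrg-C2 and Tcrg-C4 stayed higher in all 18 alternatives (log2 fold changes 3.75 to 4.49, 5.82 to 6.18 and 5.90 to 6.51), Tcrg-C1 being 4.49 without CD4 1. Trdc was -2.34 with limma voom and 1.67 to 2.86 without 1 library. Trbc2, near 0, ran from -0.45 to 0.09. The mean gamma and delta share in CD4, 1.23%, was 0.637% per transcript length (chosen after seeing the data), 0.843% without Tcrg-C1 and Tcrg-C2 and 2.73% as Trdc over Trac plus Trdc. Differences in V segment CPM without 1 library were -24.4 to -14.5 (alpha), 167 to 260.2 (gamma) and -5.63 to -2.05 (delta). With lymphomas 34, 70 and 72 averaged they were -21.3, 249 and -4.11. All 3 missed the threshold there and without any CD4 library, where fewer libraries raise the smallest possible p, and their adjusted p over all alternatives was 0.0317 to 0.0952. DESeq2 gave no adjusted p for Cd8a, Cd8b1 and Irf8. Uncalled genes that turned sign were Cd3d (-0.034, upper quartile), Trat1 (0.024) and Cd6 (0.0033) without a filter, S100a8 (-1.74) and S100a9 (-1.90) with limma voom. Without 1 library Trat1 ran from -0.36 to 0.54, Cd6 from -0.11 to 0.16, S100a8 from -1.25 to 0.76 and S100a9 from -0.86 to 0.79; the cause was not tested. Depth limits Ptcra, the beta, gamma and delta J segments and the beta and delta V segments, which rest on 0 to 112 counts a library. For J and V segments the reading of 3′ ends may be a further limit.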

Other observations

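Counts in alpha J segments, which lie between Trdc and Trac and were looked at after the counts had been seen, summed to 918 to 1025 CPM in CD4, 151 to 581 CPM in 5 lymphomas and 18.9 CPM in lymphoma 53. Traj18 was the most counted J row in every CD4 library and in lymphomas 34, 70, 72 and 86, at 53.8% to 68.7% of these counts. In lymphoma 56 it was Traj49 (1008 of 2424 counts), and in lymphoma 53 Traj12 (171 of 207 counts). Lymphoma 53, with the lowest sum, had the highest Trac level of all 9 libraries (987 CPM). The part of the group difference in reads outside genes in the alpha J sums was not tested.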
